A study of Mus musculus with 4 samples.

Results

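Dietary and biliary cholesterol enters the body through the enterocytes of the proximal small intestine, and 6 genes of this route are described here: Npc1l1, Abcg5, Abcg8, Abca1, Soat2 and Scarb1. They were chosen by symbol for their known roles and make up 6 of the 20747 condensed genes (exon blocks joined by the authors' junction table) on which reads were counted. All 6 had reads in all 4 libraries.

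Cholesterol is taken up from the lumen by NPC1L1 at the brush border. Inside the cell it is either esterified by ACAT2, the product of Soat2, for packing into chylomicrons, or pumped back into the lumen by the heterodimer of ABCG5 and ABCG8, or passed to apolipoprotein A-I at the basolateral side by ABCA1, the first step in the making of high-density lipoprotein. SR-BI, the product of Scarb1, binds high-density lipoprotein and exchanges cholesterol with it. Abcg5, Abcg8 and Abca1 are known targets of the liver X receptors, which sense oxysterols.

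The libraries came from frozen total tissue of untreated C57BL/6 mice aged 9 to 10 weeks, with 1 library per tissue and protocol. For the cDNA fragmented protocol, polyadenylated RNA of small intestine or colon was copied from an oligo-dT primer with a template switch, amplified and fragmented. Fragments that held the biotin-labelled primer ends were then removed. The study reports a depletion of both ends in shorter transcripts, probably from this step, and an excess of 3′ ends in its longest ones. The other 2 libraries, also from small intestine and colon, were made with a whole transcriptome kit from RNA whose ribosomal part had been depleted, by their labels. The study describes polyadenylated RNA and a far larger number of reads for its RNA fragmented protocol, and whether these libraries belong to that protocol is not given in the sources used here. They are called rRNA-depleted here. The stretch of intestine is given as jejunum and distal colon in the study's methods. The study's discussion describes 2 tissues of the same individuals, and the number of mice in each library is not given in the sources used here. Technical and biological replicates of the cDNA method are reported by the study but are not among the libraries used here. None of the libraries used here was repeated, so no replicate error exists for them and no test was run.

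Uniquely placed reads, of 35 SOLiD colors each, numbered 22484041 (small intestine) and 24798934 (colon) in the cDNA fragmented libraries and 2035386 and 3478387 in the rRNA-depleted ones. Levels are given as RPKM, the reads on a gene divided by its exon length in kilobases and by the uniquely placed reads of the library in units of 1000000, and carry exact Poisson intervals at the 95% level. Ratios carry exact conditional binomial (Clopper-Pearson) intervals. Neither covers more than counting error, and copies made by amplification count as separate reads. Reads lay on the strand of the gene in 98.3% of cases in both rRNA-depleted libraries, and in 48.3% and 48.2% in the cDNA fragmented ones, which therefore do not tell strands apart.

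The labelled tissues carried their markers. Of 6 jejunal enterocyte genes, 6 passed a 3-fold rule (explained below with the first comparison) towards small intestine in both protocols, and 4 of 4 colonocyte genes passed it towards colon. Among all genes tested, 2.72% passed towards small intestine and 3.19% towards colon by cDNA, and 3.69% and 6.51% after rRNA depletion. Libraries also differed in ways the labels do not give. The 2 cDNA fragmented libraries differed in sex-linked RNA, with 1752 reads of Xist in small intestine against 31 in colon and 0 against 1191 reads of the Y-linked Eif2s3y in the same order, while both rRNA-depleted libraries held Eif2s3y reads (40 and 143). The summed level of 6 pancreatic acinar genes was 0.478 RPKM in cDNA fragmented small intestine and 464 in colon, but 2533 in rRNA-depleted small intestine and 7.11 in colon, with Amy2a5 at 0 reads in all 4 libraries and 4 of the 6 genes at 0 in cDNA fragmented small intestine. Of 5 smooth muscle genes found (Tagln was not found), 4 passed towards colon in each protocol, with summed levels of 219 and 826 RPKM (small intestine, colon) by cDNA and 188 and 1762 after rRNA depletion. None of 6 macrophage genes passed, and their summed levels were 115 and 125 RPKM by cDNA and 30.1 and 60.9 after rRNA depletion. Of 4 adipocyte genes 1 passed towards colon by cDNA and 0 after rRNA depletion (39.9 and 65.4, then 15.8 and 28.4 RPKM), and of 4 hepatocyte genes 2 and 1 did (15.9 and 114, then 5.55 and 26.3 RPKM). Of 6 general epithelial genes 2 passed towards small intestine in each protocol. In the cDNA fragmented libraries the sex-linked reads do not match the same individuals for both tissues, as the study describes them. Sex differed along with tissue there, so an effect of sex on the cDNA ratios cannot be told apart from one of tissue. Small intestine also differed between protocols, with 0 Eif2s3y reads by cDNA and 40 after rRNA depletion, and acinar levels of 0.478 and 2533 RPKM. A difference between protocols below thus cannot be told apart from one of animals, sex or cell content. The part of sex and of these cells in the results below was not tested. In total tissue, fewer cells of a type cannot be told apart from less RNA per cell.

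Abcg5 and Abcg8 lie head to head on chromosome 17, and the letters between their annotated starts are shown because the pair is described together below. In GENCODE M1 on mm9 the longest Abcg5 transcript starts at 85082351 on the minus strand and transcript Abcg8-001 at 85082461 on the plus strand, so 109 bases lie between them (chr17:85082352-85082460, plus strand). Capitals mark matches to the letters GATAA, the core bound by GATA factors, and TATAAA, the TATA box, searched on both strands.

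Abcg5-Abcg8 gap: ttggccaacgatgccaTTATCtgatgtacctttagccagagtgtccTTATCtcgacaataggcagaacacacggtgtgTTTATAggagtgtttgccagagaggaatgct

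GATAA matched at 2 places and TATAAA at 1, all on the minus strand, on which Abcg5 is transcribed. Among the 109 bases before the start in 32851 promoter entries of RefSeq (GRCm38.p6), 9.36% hold GATAA and 5.90% hold TATAAA. The nuclear receptor hexamer AGGTCA was not in the gap (6.39% of entries hold it), nor were CAAAGTCCA of HNF4 (0.183%), GTTAAT of HNF1 (2.72%), CCAAT (20.1%) or CACGTG (3.38%).

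For Npc1l1, the member with the widest tissue difference, the 250 bases before the RefSeq start (chr11:6230246-6230495, minus strand, GRCm38.p6) are shown, with AGGTCA and GTTAAT matches in capitals.

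Npc1l1 upstream: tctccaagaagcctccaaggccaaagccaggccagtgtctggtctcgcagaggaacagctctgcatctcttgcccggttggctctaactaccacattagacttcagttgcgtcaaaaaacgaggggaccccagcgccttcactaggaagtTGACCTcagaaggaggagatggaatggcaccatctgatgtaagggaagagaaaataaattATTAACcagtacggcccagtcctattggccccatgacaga

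Both hexamers matched at 1 place, on the strand opposite to the one printed. Over the same 250 bases, AGGTCA is in 14.0% and GTTAAT in 6.43% of the entries. CCAAT matched at 1 place as well (33.8% of entries), and GATAA (22.6%), TATAAA (12.4%), CAAAGTCCA (0.384%) and CACGTG (6.02%) were not found. A match of letters is a description of the window and not a binding site. The gap above was set by GENCODE M1 starts, and the windows of the entries by RefSeq starts. Abcg5 and Abca1 have 1 entry each among these and Abcg8 has 2, and their windows are not shown. Soat2 and Scarb1 have none.

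Uptake. Npc1l1 lies on the minus strand of chromosome 11 (chr11:6111014-6130248, mm9) with 19 exon blocks and 4571 exon bases. It reached 110 RPKM (108 to 112, 11314 reads) in cDNA fragmented small intestine and 190 RPKM (181 to 199, 1769 reads) in rRNA-depleted small intestine. In colon it was found at 0.194 RPKM (0.122 to 0.294, 22 reads) and 1.19 RPKM (0.719 to 1.87, 19 reads) in the same order. Small intestine was high and colon low in both protocols, with intervals far apart. By level it was the 814th of the 15437 genes present in cDNA fragmented small intestine and the 276th of 13473 after rRNA depletion.

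The tissues were compared by a rule of size taken from the study's methods, which apply it to FPKM of transcripts. Here it was applied to RPKM of condensed genes, and a gene is called when its RPKM in one tissue is at least 3 times the sum of that in the other and a penalty of 1. Npc1l1 passed it towards small intestine in both protocols. Its RPKM ratio of small intestine to colon was 567 (374 to 905) by cDNA and 159 (102 to 265) after rRNA depletion, the 25th highest of 15077 genes and the 19th highest of 13059 present in both tissues. Each of its 19 exon blocks had more reads in small intestine, relative to the library totals, in both protocols, so the difference did not rest on a part of the gene. The ratio by cDNA was 3.56 times that after rRNA depletion (1.93 to 6.60, a counting interval on the log scale). Its colon level was 6.16 times as high after rRNA depletion as by cDNA (3.15 to 11.9), against 1.73 times in small intestine (1.64 to 1.82). At 22 and 19 reads, the colon values are the limit of precision here.

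**Figure D1:**
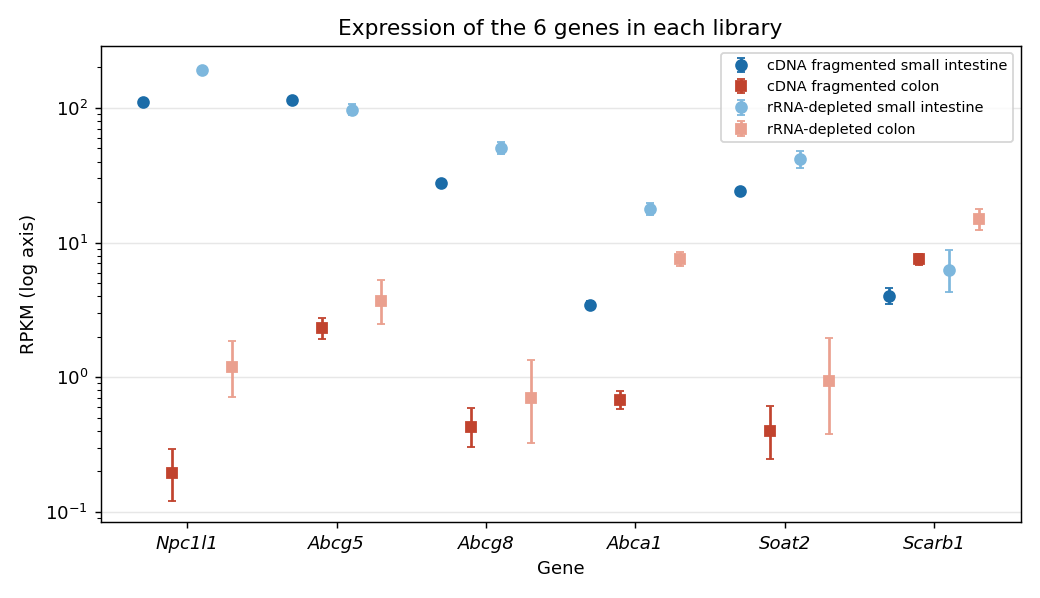
RPKM of each of the 6 genes (horizontal axis) in each of the 4 libraries, on a log axis, with exact Poisson intervals at the 95% level that cover counting error only. Npc1l1, Abcg5, Abcg8 and Soat2 are above 20 RPKM in both small intestine libraries and below 4 RPKM in both colon libraries, while Scarb1 is higher in colon.

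Return to the lumen. Abcg5 (chr17:85057574-85082263, minus strand, 13 exon blocks, 2263 exon bases) and Abcg8 (chr17:85082471-85099673, plus strand, 13 exon blocks, 3657 exon bases) encode the partners of the sterol pump, and each is needed for the other to reach the cell surface. Abcg5 was at 114 RPKM (111 to 117, 5781 reads) in cDNA fragmented small intestine and 97.3 RPKM (88.5 to 107, 448 reads) in rRNA-depleted small intestine. In colon it was at 2.32 RPKM (1.94 to 2.75, 130 reads) and 3.68 RPKM (2.47 to 5.29, 29 reads). Abcg8 was at 27.8 RPKM (26.6 to 28.9, 2283 reads) and 50.1 RPKM (45.2 to 55.5, 373 reads) in the small intestine libraries in the same order. Its colon levels were 0.430 RPKM (0.306 to 0.588, 39 reads) and 0.708 RPKM (0.324 to 1.34, 9 reads). Both partners were thus far higher in small intestine, and both had reads in colon. Jejunal markers had colon reads too, Sis 195 and Lct 4 by cDNA and 257 and 89 after rRNA depletion, and whether reads were carried over between libraries was not tested.

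Both passed the 3-fold rule towards small intestine in both protocols, but over the last 1000 exon bases by cDNA Abcg8 did not (2.52 times with the penalty, at 68 and 5 reads). Small intestine exceeded colon by a ratio of 49.0 (41.2 to 58.8) for Abcg5 and 64.6 (47.1 to 91.0) for Abcg8 by cDNA, and 26.4 (18.1 to 39.9) and 70.8 (36.9 to 156) after rRNA depletion. The tissue ratio of Abcg8 was 1.32 times that of Abcg5 by cDNA (0.917 to 1.89, a counting interval on the log scale that holds 1) and 2.68 times after rRNA depletion (1.25 to 5.74), the latter with 9 Abcg8 reads in colon. By cDNA this value depended on what was counted. With start points (distinct positions and strands) in place of reads it was 2.19, and over the last 1000 exon bases it was 0.276 (0.108 to 0.703), with 5 Abcg8 reads in colon. Start points are bounded by the positions a gene has, and in cDNA fragmented small intestine those of Abcg5 filled 52.6% of its 4526 positions on both strands and those of Abcg8 21.9% of 7314, against 2.65% and 0.506% in colon. After rRNA depletion the last 1000 bases gave 1.36 (0.435 to 4.25), an interval that holds 1. All 13 blocks of Abcg5 were higher in small intestine in both protocols. All 13 blocks of Abcg8 were so by cDNA, and 12 after rRNA depletion, where 1 block had no reads in either tissue. In GENCODE M1 the long transcript Abcg8-002 starts inside the Abcg5 gene and shares 1 block with it, on the opposite strand. In the rRNA-depleted libraries all 448 and 29 Abcg5 reads lay on the Abcg5 strand.

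Within a library, Abcg5 was higher than Abcg8 per kilobase of exon. The ratio of their RPKM was 4.09 (3.90 to 4.30) in cDNA fragmented small intestine, 5.39 (3.74 to 7.92) in cDNA fragmented colon, 1.94 (1.69 to 2.23) in rRNA-depleted small intestine and 5.21 (2.40 to 12.5) in rRNA-depleted colon. Every interval was above 1. With start points in place of reads it fell to 2.40 in cDNA fragmented small intestine, where Abcg5 had 2.43 and Abcg8 1.42 reads per start point. The ratio also depended on the part of the genes that was counted. Without the last exon block of each it was 2.83 in cDNA fragmented small intestine and 1.74 in rRNA-depleted small intestine. Over the last 1000 exon bases alone it was 53.7 and 2.76, since Abcg8 had only 68 of its 2283 reads there by cDNA, against 62 of 373 after rRNA depletion.

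The last exon block of Abcg8 has 1672 bases and holds 45.7% of its exon bases. In cDNA fragmented small intestine its read density was 0.616 times (0.564 to 0.672) that of the rest of the gene, and that of the last block of Abcg5 was 1.97 times (1.86 to 2.08). With both last blocks left out, the ratio of Abcg5 to Abcg8 in this library was 2.83 in place of 4.09. The 2 blocks were not left out singly. GENCODE M1 gives Abcg8 transcripts that end inside it, at 85098303, 85098673 and 85099430, and at its end, 85099673. The hexamer AATAAA, the usual poly(A) signal, occurs at 3 places in the block on the strand of the gene, at bases 290, 386 and 1653 from its start. They are shown with 12 bases on either side (chr17:85098279-85098308, chr17:85098375-85098404 and chr17:85099642-85099671, mm9, plus strand), the hexamer in capitals.

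Abcg8 site 1: ggatggcagtagAATAAAgacagttgagag

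Abcg8 site 2: tttatatctttaAATAAAcaacccagtatg

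Abcg8 site 3: cttttcataattAATAAAgcttttggatac

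In cDNA fragmented small intestine, the block had 446 reads up to the end of the first hexamer, 121 between the first and the second, and 213 in the 1281 bases beyond the second. Per 1000 bases these are 1512, 1260 and 166 reads, so density was lower beyond the second hexamer. The fall had 2 steps, as bins of 50 bases starting at bases 400 to 650 held 12 to 32 reads, those starting at 700 to 1400 held 0 to 5 and the later ones 1 to 14. The annotated end at 85098673 is base 672 of the block. In rRNA-depleted small intestine the same stretches had 41, 6 and 86 reads, or 139, 62.5 and 67.1 per 1000 bases, and most reads of the block (64.7%, against 27.3% by cDNA) lay beyond the second hexamer. Colon had 17 and 5 reads in the whole block, too few for a profile. Where transcripts end was not tested.

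**Figure D2:**
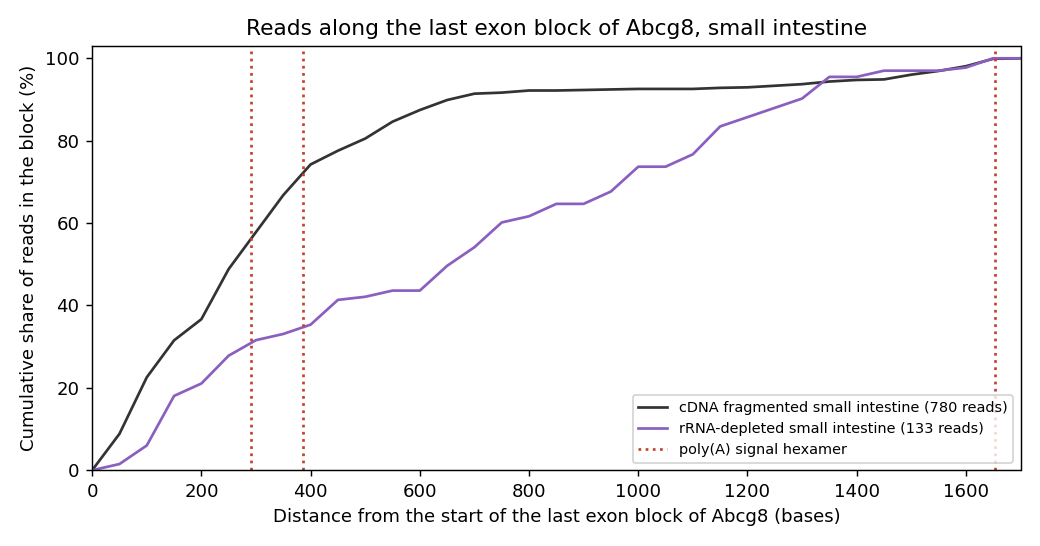
Cumulative share of the reads (vertical axis, %) along the last exon block of Abcg8, by distance in bases from its start, in the 2 small intestine libraries, with dotted lines at the 3 poly(A) signal hexamers. The cDNA fragmented library has gathered over 70% of its 780 reads by the second hexamer, while the 133 reads of the rRNA-depleted library are spread along the block.

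Efflux to high-density lipoprotein. Abca1 (chr4:53043661-53172767, minus strand, 50 exon blocks, 10260 exon bases) was at 3.46 RPKM (3.23 to 3.71, 799 reads) in small intestine and 0.680 RPKM (0.582 to 0.789, 173 reads) in colon by cDNA. After rRNA depletion it was at 17.7 RPKM (15.9 to 19.6, 369 reads) in small intestine and 7.57 RPKM (6.69 to 8.52, 270 reads) in colon. It was the higher in small intestine in both protocols, but by far less than Npc1l1 or the Abcg5 and Abcg8 pair. Of its 50 blocks, 37 were higher in small intestine, 5 in colon and 8 without reads by cDNA, and 39, 8 and 3 after rRNA depletion. The ratio was 5.09 (4.32 to 6.04) by cDNA and 2.34 (1.99 to 2.74) after rRNA depletion, and neither passed the 3-fold rule. By cDNA its ratio was above 3 and the penalty of 1 kept it from passing, since its levels are near that penalty. With a penalty of 0.1, or none, with start points, and over the last 1000 exon bases it passed towards small intestine by cDNA.

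The libraries of the protocols also differed in the tissue ratio of Abca1, the ratio by cDNA being 2.18 times that after rRNA depletion (1.74 to 2.74). Protocol cannot be told apart here from the animals, sex or cell content of the libraries. In small intestine its level was 5.10 times (4.50 to 5.78) as high in the rRNA-depleted library as in the cDNA fragmented one. For colon the value was 11.1 times (9.16 to 13.5). In small intestine this was more than for any other member, and in colon only the interval of Npc1l1 overlaps it. By cDNA, 638 of 799 reads in small intestine (79.8%) and 139 of 173 in colon (80.3%) lay in the last exon block, which has 32.1% of the exon bases. After rRNA depletion 128 of 369 (34.7%) and 129 of 270 (47.8%) did. The excess of 3′ ends that the study reports for its longest transcripts applies to the cDNA fragmented protocol. Abca1, with 10260 exon bases, is the longest of the 6 genes, and the part of length in these values was not tested. By cDNA, small intestine over colon was 5.06 (4.21 to 6.13) in the last block and 5.22 (3.59 to 7.80) in the remaining blocks, with overlapping intervals. After rRNA depletion it was 1.70 (1.32 to 2.18) in the last block and 2.92 (2.36 to 3.62) in the others, with intervals apart.

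**Figure D3:**
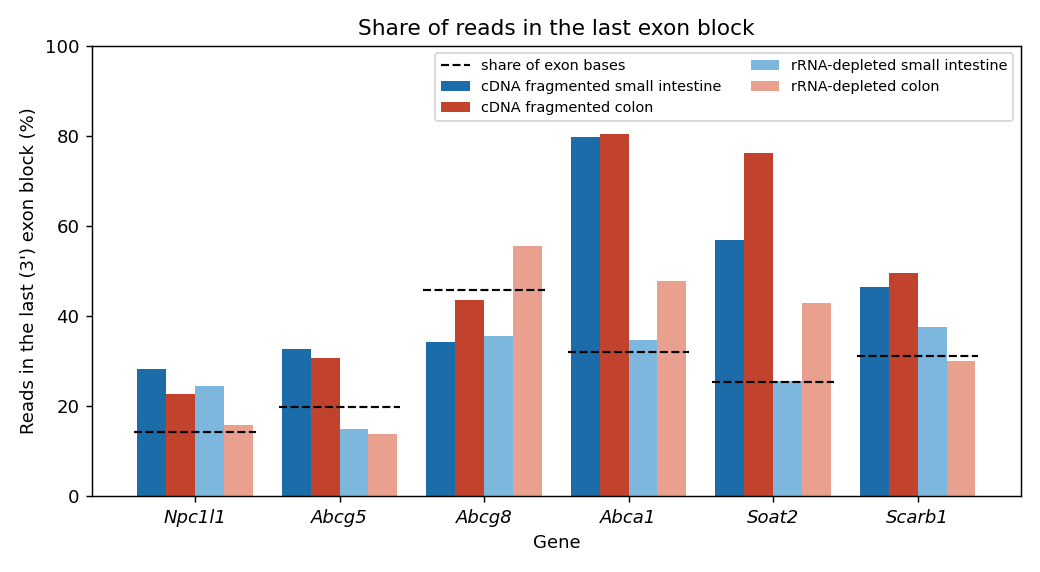
Share of each gene's reads (%) that lay in its last exon block at the 3′ end, in the 4 libraries (bars), with the share of exon bases in that block as a dashed line. Abca1 has about 80% of its reads there in both cDNA fragmented libraries, and Abcg8 lies below its dashed line in 3 of the 4 libraries. In cDNA fragmented colon this rests on 17 of 39 Abcg8 reads. The density of the last block was there 0.917 times (0.457 to 1.81) that of the rest, an interval that holds 1.

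Esterification. Soat2 (chr15:101981006-101993867, plus strand, 15 exon blocks, 2126 exon bases) was at 24.2 RPKM (22.8 to 25.6, 1156 reads) in cDNA fragmented small intestine and 0.398 RPKM (0.247 to 0.609, 21 reads) in colon. After rRNA depletion it was at 41.6 RPKM (35.7 to 48.1, 180 reads) and 0.947 RPKM (0.381 to 1.95, 7 reads). The ratios were 60.7 (39.5 to 98.5) and 43.9 (20.9 to 111), and Soat2 passed the 3-fold rule towards small intestine in both protocols. All 15 blocks were higher in small intestine by cDNA, and 14 after rRNA depletion with 1 block without reads. Soat1, the related enzyme found in most tissues, had levels of 5.38 (small intestine) and 9.74 RPKM (colon) by cDNA and 9.86 and 26.6 RPKM after rRNA depletion, and passed in neither. Between the enzymes, Soat2 was thus the higher per kilobase in small intestine and Soat1 in colon, in both protocols.

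Exchange with high-density lipoprotein. Scarb1 (chr5:125757460-125821444, minus strand, 13 exon blocks, 2498 exon bases) was the only one of the 6 genes with a higher level in colon. It was at 4.02 RPKM (3.52 to 4.58, 226 reads) in small intestine and 7.54 RPKM (6.87 to 8.25, 467 reads) in colon by cDNA. After rRNA depletion it was at 6.29 RPKM (4.30 to 8.88, 32 reads) and 14.96 RPKM (12.5 to 17.8, 130 reads). The ratio of colon to small intestine was 1.87 (1.59 to 2.21) and 2.38 (1.60 to 3.62), and neither passed the 3-fold rule. All 13 blocks were higher in colon by cDNA, and 10 after rRNA depletion against 3 higher in small intestine. This difference is within the bulk of genes, as 28.9% of genes present in both tissues by cDNA and 18.8% after rRNA depletion had a ratio of small intestine to colon as low. It kept its direction when the libraries were scaled by the median of ratios.

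Scarb1 has 2 coding ends in GENCODE M1. Transcript Scarb1-001 contains exon block 12 and stops within it, and Scarb1-002 skips that block and stops in block 13. The block codes for the tail of SR-BI that binds the scaffold protein PDZK1, and the alternative product is known as SR-BII. It is shown because the annotated forms differ in it (chr5:125761475-125761603, mm9, minus strand), with the stop codon in capitals.

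Scarb1 block 12: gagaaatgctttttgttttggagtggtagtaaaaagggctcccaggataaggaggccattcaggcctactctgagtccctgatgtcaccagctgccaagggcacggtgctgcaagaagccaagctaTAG

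Block 12 had 15 reads in small intestine and 26 in colon by cDNA, and 2 and 5 after rRNA depletion. Its read density was 1.47 and 1.35 times that of blocks 2 to 11 together by cDNA, and 1.24 and 0.626 times after rRNA depletion. The last block had 1.93 and 2.17 times the density of all others by cDNA. A place near the 3′ end thus cannot be told apart from use of block 12, and the values after rRNA depletion rest on 2 and 5 reads. Reads of this block were thus found in both tissues. Junction placements on the whole gene numbered 4, 4, 0 and 1, so the share of the form without it could not be measured at this depth.

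**Figure D4:**
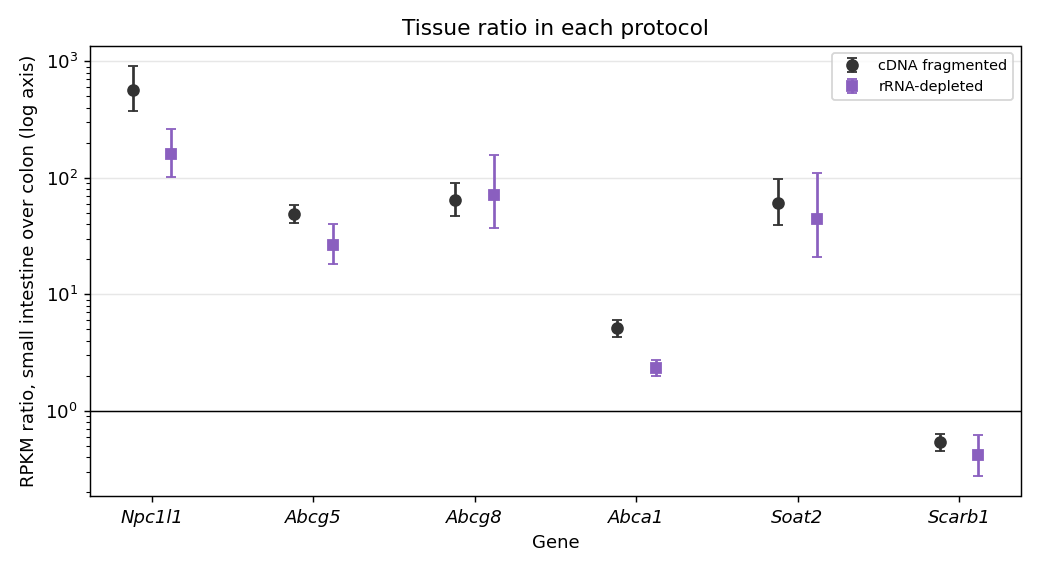
RPKM ratio of small intestine to colon (log axis) for the 6 genes in both protocols, with exact conditional binomial intervals at the 95% level that cover counting error only. Npc1l1, Abcg5, Abcg8 and Soat2 lie above 20 in both protocols, Abca1 between 2 and 6, and Scarb1 below the line at 1.

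The 6 genes compared. By cDNA 4 of the 6 genes (Npc1l1, Abcg5, Abcg8 and Soat2) passed the 3-fold rule towards small intestine, where 2.72% of the 16410 genes tested did, and 0 of 6 towards colon, where 3.19% did. After rRNA depletion the same 4 of 6 passed towards small intestine, against 3.69% of 15019 genes, and 0 of 6 towards colon, against 6.51%. The median log2 ratio of small intestine to colon, with 1 RPKM added to each level, was 4.25 for the 6 genes and -0.16 for all genes tested by cDNA, and 4.42 and -0.30 after rRNA depletion. Scaling by the median of ratios shifts the log2 ratio of RPKM of every gene by 0.40 and 0.34 towards small intestine, and less where 1 RPKM is added. With 1 RPKM added, Scarb1 then had log2 ratios of -0.43 and -0.82 in place of -0.77 and -1.13. The genes have known functions in absorption and were chosen with earlier results of these data known, so the count describes them and no more.

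In the order of levels per kilobase, Abcg5 and Npc1l1 led in cDNA fragmented small intestine with overlapping intervals, followed by Abcg8, Soat2, and then Scarb1 and Abca1, whose intervals overlap. In rRNA-depleted small intestine the order was Npc1l1, Abcg5, Abcg8, Soat2, Abca1 and Scarb1, and only Abcg8 and Soat2 were not apart. Colon had another order, with Scarb1 first in both protocols. Abcg5 and Abca1 came next in cDNA fragmented colon, and Abca1 and Abcg5 in rRNA-depleted colon. Abcg8, Soat2 and Npc1l1 were the lowest 3 in both colon libraries, and after rRNA depletion their intervals overlap. In cDNA fragmented colon the intervals of Abca1, Abcg8 and Soat2 overlap each other, and that of Npc1l1 overlaps that of Soat2 but lies under that of Abcg8.

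The rest of the pathway was described from 4 lists. Of 12 efflux and esterification partners, 2 passed towards small intestine and 2 towards colon by cDNA, and 3 and 1 after rRNA depletion, with a median log2 ratio of -0.23 and -0.06. Among all genes tested 2.72% and 3.19% passed by cDNA and 3.69% and 6.51% after rRNA depletion, towards small intestine and colon in that order. Those that passed in the same direction in both were Apoa1 and Apoa4 (log2 ratios 9.46 and 9.70 by cDNA, 6.92 and 6.06 after rRNA depletion), the apolipoproteins that accept or carry cholesterol, towards small intestine, and Nceh1, a hydrolase of cholesterol esters, towards colon (-1.70 and -2.24). Cel, the bile salt-activated lipase of pancreatic juice, went opposite ways, with 16 reads in small intestine and 1537 in colon by cDNA and 986 and 10 after rRNA depletion. It was named after its values were seen, and the summed acinar genes above moved in the same way. Of the other efflux transporters, Abcg1 had log2 ratios of -0.20 and 0.12 and Abca7 of -0.44 and -0.11. By cDNA Abca7 was at 0.357 RPKM in small intestine and 0.844 in colon, where the 1 RPKM added weighs more. Its ratio of small intestine to colon without that addition was 0.424 (0.303 to 0.585). Abcb1a, the drug and lipid transporter P-glycoprotein, had -1.36 and -0.65, at 37.0 RPKM in small intestine and 96.4 in colon by cDNA and 50.5 and 80.0 after rRNA depletion. None of these passed.

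Of 17 genes of sterol uptake and transport inside the cell, 2 passed towards small intestine and 0 towards colon by cDNA, and 3 and 1 after rRNA depletion (all genes 2.72%, 3.19%, 3.69% and 6.51%), with medians of -0.34 and 0.17. Pdzk1, the scaffold that binds SR-BI, was the only one to pass in both, at 200 RPKM in small intestine and 1.25 in colon by cDNA and 61.5 and 4.55 after rRNA depletion. Its ratios of 160 (135 to 191) and 13.5 (10.5 to 17.6) thus pointed away from those of Scarb1. Npc1 and Npc2, which move cholesterol out of lysosomes, had log2 ratios of -0.44 and -0.94 by cDNA and -0.82 and -1.31 after rRNA depletion. Neither passed. The others that passed, named after their values were seen, did so in 1 protocol each. Cd36, a fatty acid receptor, passed towards small intestine by cDNA (log2 ratios 1.74 and 1.12). After rRNA depletion Lrp1 (-0.53 and 1.89) and Numb (1.18 and 1.86) passed towards small intestine. Cav1, the coat protein of caveolae, then passed towards colon (-0.69 and -3.41). By cDNA Lrp1 was at 0.735 RPKM in small intestine and 1.51 in colon, near the 1 RPKM added. Its ratio without that addition was 0.488 (0.418 to 0.568). In chylomicron assembly, both listed genes passed towards small intestine in both protocols, Apob with log2 ratios of 4.74 and 5.42 and Mttp, the lipid loader of apolipoprotein B, with 8.41 and 7.09.

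Of 14 regulators, 1 passed towards small intestine and 0 towards colon by cDNA, and 0 and 1 after rRNA depletion (all genes 2.72%, 3.19%, 3.69% and 6.51%), with medians of -0.40 and -0.43. Nr1h3 (LXRα) had log2 ratios of 1.69 and 0.69 and passed by cDNA only, a difference between protocols that was not tested. Nr1h2 (LXRβ) had -0.06 and -0.64 and Hnf4a -0.31 and -0.25. Mylip, a ubiquitin ligase, had -0.71 and -1.78 and passed towards colon after rRNA depletion. Srebf2, which drives sterol synthesis genes, had -0.89 and -0.35. By cDNA Srebf2 was at 1.08 RPKM in small intestine and 2.85 in colon, near the 1 RPKM added. Its ratio of small intestine to colon without that addition was 0.379 (0.303 to 0.472).

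**Figure D5:**
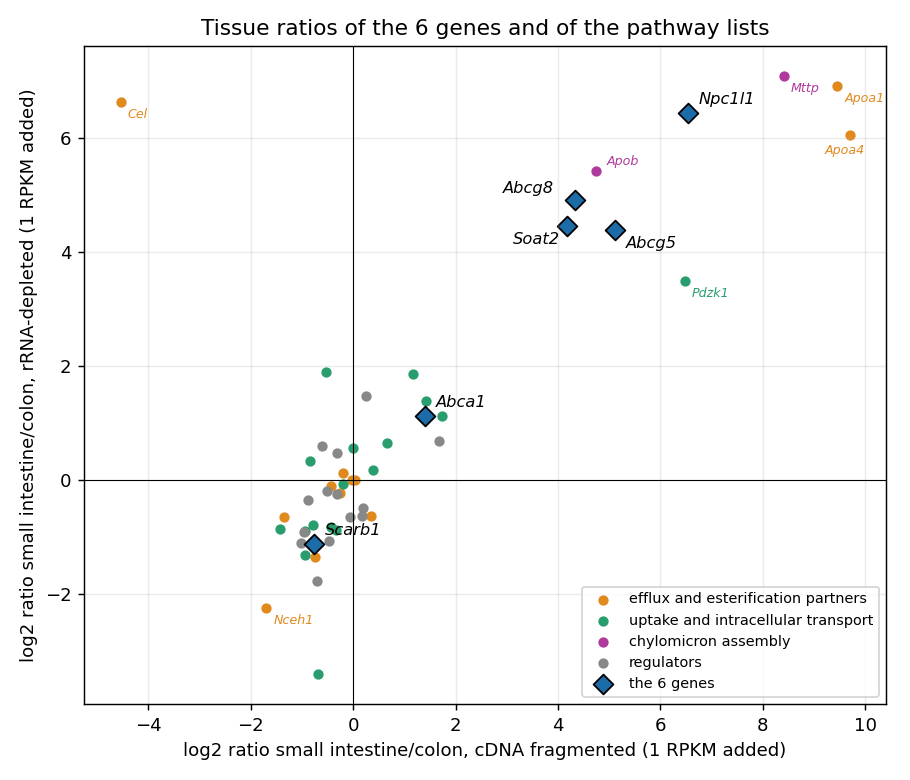
Log2 ratio of small intestine to colon, with 1 RPKM added, by cDNA fragmentation (horizontal axis) and after rRNA depletion (vertical axis), for the 6 genes (diamonds) and the 4 pathway lists (points). Npc1l1, Abcg5, Abcg8 and Soat2 lie above 4 on both axes beside Apoa1, Apoa4, Apob and Mttp, while most regulators and transport genes lie near 0 and Cel lies at -4.54 and 6.63.

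The genes with the nearest pair of log2 ratios were looked up among 6686 genes that reached 5 RPKM in at least 1 library of each protocol. Those nearest to Npc1l1 were Lct, the lactase of the brush border (distance 0.163), and Slc6a19, its transporter of neutral amino acids (0.320). Abcg5 was nearest to Xpnpep2 (0.180) and Cps1 (0.196), Abcg8 to Alpi, the intestinal alkaline phosphatase (0.0288), and G6pc (0.127), and Soat2 to Gm239 (0.311) and Slc25a45 (0.368). Abca1 was nearest to Cyb5 (0.0146) and Fmo5 (0.0350), and Scarb1 to Ublcp1 (0.0164) and Snx2 (0.0224). Abca1 itself did not reach 5 RPKM by cDNA (3.46 in small intestine, 0.680 in colon). Its ratio of 5.09 there gave a log2 ratio of only 1.41 with 1 RPKM added. Abcg8 and Soat2 were close to each other, Soat2 ranking 6th from Abcg8 and Abcg8 7th from Soat2. The partner Abcg5 ranked 20th from Abcg8. The log2 ratios hold the 1 RPKM added, which weighs most where colon levels are low. Without it, the ratio by cDNA was 3822 (1492 to 14030) for Lct and 567 (374 to 905) for Npc1l1. It was 27.4 (23.2 to 32.6) for Alpi and 64.6 (47.1 to 91.0) for Abcg8. Both pairs of intervals are apart by cDNA and overlap after rRNA depletion, so a small distance does not mean equal ratios. These likenesses rest on 4 libraries only.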

How the data were processed

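The authors deposited the positions, strands and color mismatches of single SOLiD reads, matched to RefSeq exons of mm9 and to exon-exon junctions with up to 3 mismatches over 35 colors, kept where the placement was unique, together with the position tables of exons and junctions. These files carry positions rather than normalized values. The aligner of these files is not given in the sources used here. A read counted as unique if no other exon or junction matched it, and introns were not part of the reference.

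Reads per exon block were counted here by the start of the read, with a tolerance of 3 bases at borders, and summed over 20747 condensed genes, of which 20576 were named from GENCODE M1 on the same assembly. The numbers of reads and of start points equal those of the authors' reports in all 4 libraries. RPKM used all uniquely placed reads. A gene was tested in a protocol when it was above 0.01 RPKM with at least 2 start points in at least 1 tissue. The 3-fold rule followed the study's methods, with RPKM of condensed genes in place of FPKM of transcripts. Log2 ratios used 1 RPKM added. A fold against 0 reads was not given.

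Groups came from the labels. The members and lists were chosen with earlier results of these data known. All members were named, from each pathway list at most 4 genes that passed in the same direction in both protocols, and for each member the 2 nearest genes by the Euclidean distance of both log2 ratios. Genes outside this rule are values of their list. Lists of jejunal, colonic, general epithelial, macrophage, smooth muscle, adipocyte, hepatocyte, pancreatic acinar and sex-linked genes were examined as well. Alternatives were other read totals, at most 1 mismatch, start points, junction placements, the last 1000 bases, shared blocks left out, other penalties, a minimum of 10 reads, 0.1 RPKM added and the gene's own strand, and, chosen after seeing the data, the last block left out, the length at which a whole read can start and all settings of the paired tissue ratio of Abcg8 and Abcg5. The stretches of the last Abcg8 block were also set after seeing the data. Python 3.11.15, numpy 2.4.6, pandas 2.3.3, scipy 1.17.1 and matplotlib 3.10.9 were used. The rule and the ratio intervals were tried on counts simulated with Poisson error only. Such counts hold no copies made by amplification, so they cannot show how the intervals hold for these libraries.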

Additional observations from a re-analysis of the deposited data

Results flagged for a closer look

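In the stranded, rRNA-depleted small intestine library, 7 of the 180 Soat2 reads lay on the strand opposite to the gene, more than the 3 reads that a count of 0 allows. That limit is a weak mark here, since 1.67% of all exon reads of this library lay opposite to their gene. If it were even over genes, that share would give 3.001 of 180 reads. It was not even among these genes, as the other 5 had 0 such reads in either rRNA-depleted library. Npc1l1 had 1769 reads in this small intestine library. The 7 reads had only 4 distinct starts, all within the last 124 bases of the last exon block of Soat2. In rRNA-depleted colon 1 of 7 reads was on the opposite strand, 13 bases from the end of the block. Of the neighbouring genes looked up, Csad lies downstream on the minus strand and ends at 102007429, while the annotated Soat2 gene ends at 101993905. Whether other genes lie between them was not looked up. The source of these reads was not tested. On the strand of the gene alone Soat2 kept 173 and 6 reads.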

How the results depend on the processing

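No log2 ratio of any of the 6 genes changed its sign under the alternatives tried. The genes past the 3-fold rule were Npc1l1, Abcg5, Abcg8 and Soat2 towards small intestine and 0 towards colon in every setting except by cDNA, where start points in place of reads, a penalty of 0.1 or no penalty gave 5 (Abca1 added), and the last 1000 bases gave 4 in which Abca1 (3.45 times with the penalty) took the place of Abcg8 (2.52 times). The median log2 ratio of the members by cDNA was 4.50 with the median of ratios, 4.42 with at most 1 mismatch, 3.22 over the last 1000 bases and 5.58 with 0.1 RPKM added. After rRNA depletion it was 3.96 with start points, 3.94 over the last 1000 bases and 5.001 with 0.1 RPKM added. Over all genes, a penalty of 0.1 gave 690 towards small intestine and 1343 towards colon by cDNA and 1060 and 2433 after rRNA depletion, and no penalty gave 1072 and 2675, and 1288 and 2820. The Abcg5 to Abcg8 ratio in cDNA fragmented small intestine was 2.40 with start points, 53.7 over the last 1000 bases, 2.83 without the last block and 4.47 over the length at which a whole read can start. Over the last 1000 bases it was 14.8 in cDNA fragmented colon and 2.76 in rRNA-depleted small intestine, where start points gave 1.57. The lowest log2 ratio by cDNA of Abcg8 was 1.74 (last 1000 bases), where it has few reads, and of Abca1 0.76 (without the last block), where the 1 RPKM added weighs more. The tissue ratio of Abcg8 over that of Abcg5 by cDNA was 2.19 with start points and 0.276 over the last 1000 bases. Other causes were not tested. A model of tissue with protocol as a block, which would leave 1 residual degree of freedom, was not run. No library could be left out, since each tissue and protocol had 1. Among the levels of the 6 genes, those that rest on 39 reads or fewer are Npc1l1, Abcg8 and Soat2 in colon (7 to 39), and, after rRNA depletion, Abcg5 in colon (29) and Scarb1 in small intestine (32).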
